A study of Mus musculus with 9 samples.

Results

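Gata6, Gata4, Sox17, Sox7, Foxa2, Hnf4a, Pdgfra, Dab2 and Afp are 9 genes used as markers of primitive endoderm and the extraembryonic endoderm derived from it. They were chosen by name, and every probe that is not a control and whose accession maps to one of these symbols was taken. That gave 11 probes for the 9 genes, out of 55681 probes and 20660 genes with a symbol on the array. The cells were J1 mouse embryonic stem cells of strain 129S4/SvJae, a single line bought from ATCC, adapted to gelatin and grown on it without a feeder layer in Knockout DMEM with Knockout Serum Replacement. All 3 groups had 1000 U/mL of leukaemia inhibitory factor (LIF) in the medium and were treated for 24 h: with DMSO as the control, with 3 µM CHIR99021, or with 1 mM AICAR, and each group has 3 arrays of total RNA. CHIR99021 blocks the kinase GSK3 and so stabilises beta-catenin, the effector of Wnt signalling, and AICAR enters cells and becomes an AMP mimic that switches on the energy-sensing kinase AMPK. The labels do not say whether replicates were separate cultures, so p-values measure the spread between these arrays, which may be technical.

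Primitive endoderm is the epithelium that sorts out from the epiblast in the mouse blastocyst and later forms the parietal and visceral endoderm of the yolk sacs. FGF4 made by epiblast precursors acts through FGF receptors and the kinase ERK to favour it, and the transcription factors come on in sequence, with Gata6 first, then Sox17 and Gata4, and Sox7 later. Embryonic stem cells resemble the epiblast and express most of these genes at low levels or in few cells.

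Levels are the log2 of a probe's processed signal minus the 75th percentile of its array, so 0 is the signal below which 75% of the spots lie. By the scanner software's own test, 62.8% to 67.2% of an array's spots were well above background. The 75th percentile of the signal lay between 567 and 617 intensity units. The correlation over all features tested was 0.995 to 0.997 between arrays of a group and 0.973 to 0.983 between arrays of different groups. Each group was hybridised on a slide of its own, so slide and treatment cannot be told apart. All 8 embryonic stem cell markers on a fixed list were well above background on every array. In a bulk sample, fewer cells of a type and less RNA per cell cannot be told apart.

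All 9 genes were detected, each well above background on at least 3 arrays. Of these, 7 were so on all 9 arrays, Foxa2 on 8, and Afp on the 6 arrays of the DMSO and AICAR groups. The summed level of the 9 genes, on the linear scale in units of the 75th percentile, was 1.34 to 1.43 with DMSO, 1.65 to 1.82 with CHIR99021 and 1.54 to 1.63 with AICAR. The sums did not overlap between any of the groups on this scale. All sums, here and below, use the 75th percentile alone. Scaling on spike-in controls shifts AICAR arrays relative to the others, and the order of the sums under it was not tested. A linear sum gives most weight to the brightest genes, here Hnf4a and Gata6, so it does not stand for all 9, which differed in direction. The words rose and fell are kept for an adjusted p under 0.05, from limma with Benjamini-Hochberg adjustment over all 26875 features tested. Each ± is the fit's standard error, from 3 arrays a group.

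**Figure D1:**
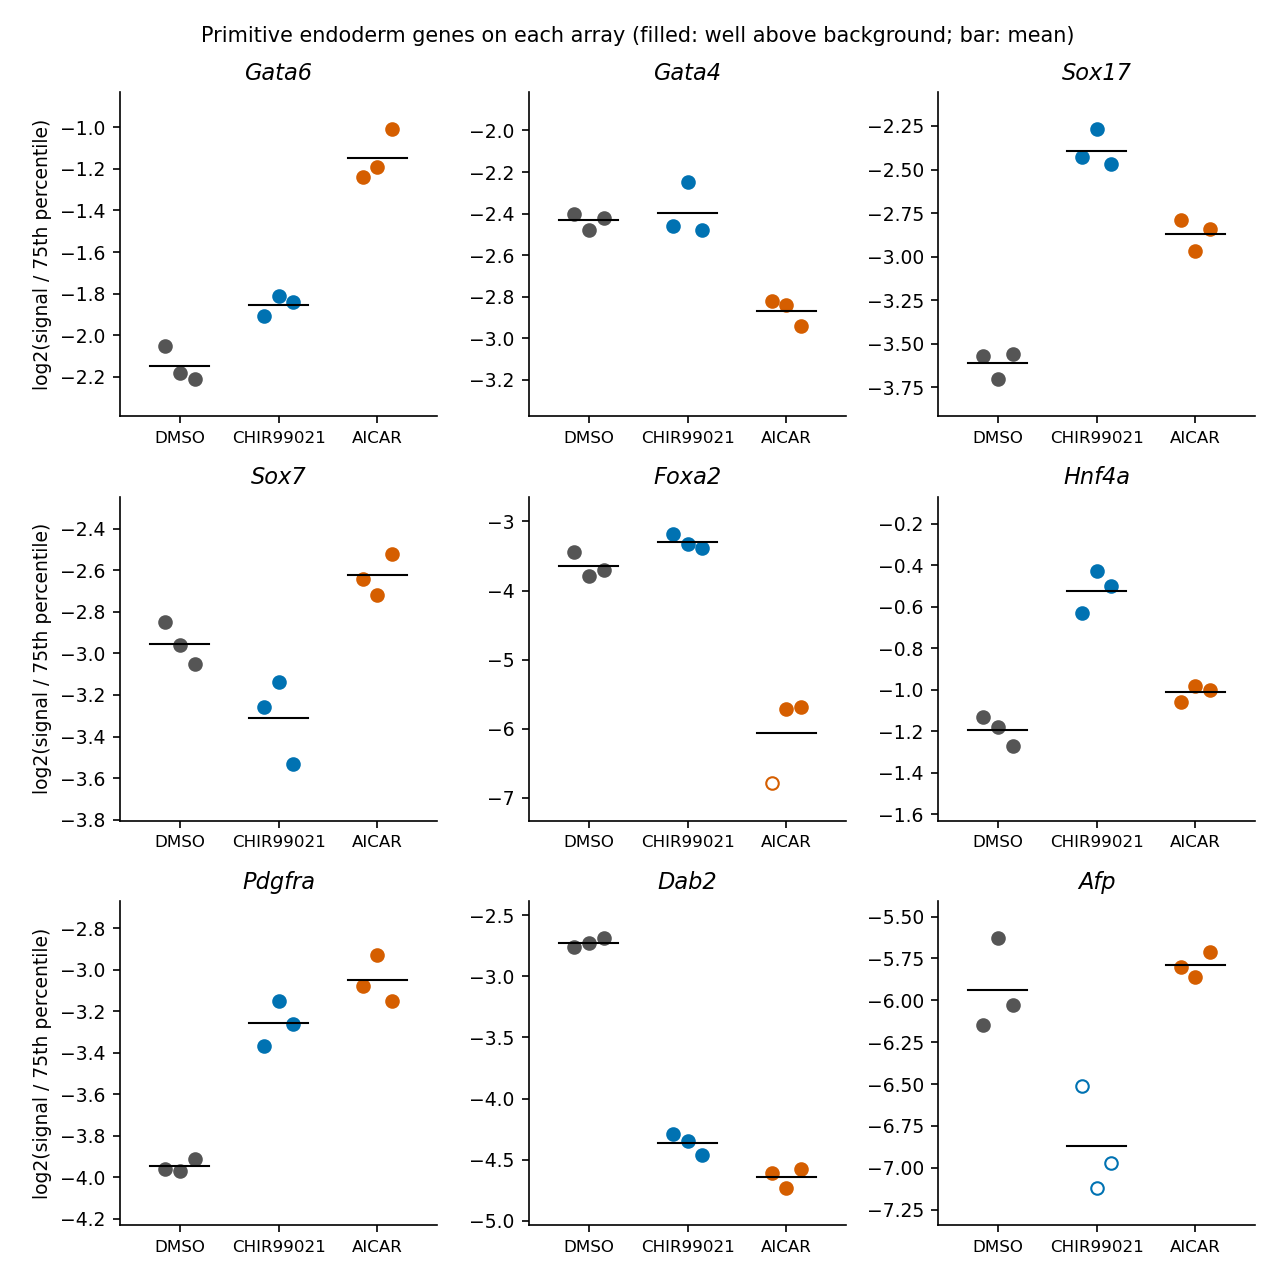
Level of each of the 9 primitive endoderm genes on every array, as log2 of the processed signal minus the array's 75th percentile; points are single arrays, bars are group means, and open points were not well above background. Dab2 lies near -2.7 on all DMSO arrays and below -4.2 on all others, and Gata6 is highest on the 3 AICAR arrays.

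Gata6, the zinc finger factor that starts the primitive endoderm programme, rose with both treatments and more with AICAR. Its log2 level was -2.05, -2.18 and -2.21 on the DMSO arrays, -1.91, -1.81 and -1.84 with CHIR99021, and -1.24, -1.19 and -1.01 with AICAR. All 3 groups were apart, in the order DMSO, CHIR99021, AICAR. The rise with AICAR was 1.00 ± 0.07 on the log2 scale, a 2.00-fold change (adjusted p = 1.30e-05), and that with CHIR99021 was 0.29 ± 0.07, or 1.23-fold. The level with CHIR99021 was 0.71 ± 0.07 below that with AICAR (log2 difference -0.71, adjusted p = 7.59e-05).

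Gata4, a related factor that is switched on after Gata6, did not follow it. Its level was -2.40, -2.48 and -2.42 with DMSO and -2.46, -2.25 and -2.48 with CHIR99021, and these 6 arrays overlapped. With AICAR it was -2.82, -2.84 and -2.94, below every other array. It thus fell by 0.43 ± 0.07 with AICAR (1.35-fold, adjusted p = 0.00106). The difference between CHIR99021 and DMSO was 0.04, with a 95% interval of -0.13 to 0.20, and did not pass the test (adjusted p = 0.691). Gata4 was 0.47 ± 0.07 higher with CHIR99021 than with AICAR, so that in the AICAR arrays the Gata6 level was at its highest and the Gata4 level at its lowest. Scaling on the spike-in controls instead of the 75th percentile ended the call of the fall with AICAR (-0.23, adjusted p = 0.105, over a range of 0.000409 to 0.105 in all alternatives).

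Sox17, an HMG-box factor of primitive and definitive endoderm, rose with both compounds. The brighter of its 2 probes read -3.57, -3.70 and -3.56 with DMSO, -2.43, -2.27 and -2.47 with CHIR99021, and -2.79, -2.97 and -2.84 with AICAR. No group overlapped another, and the CHIR99021 arrays were the highest. The rise was 1.22 ± 0.08 with CHIR99021, or 2.33-fold (adjusted p = 8.80e-06), and 0.74 ± 0.08 with AICAR, or 1.67-fold (adjusted p = 7.81e-05). The level with CHIR99021 exceeded that with AICAR by 0.48 ± 0.08 (adjusted p = 0.000843).

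The dimmer Sox17 probe passed the test with CHIR99021 and missed it with AICAR. It read -4.00, -4.26 and -4.36 with DMSO, -3.22, -3.09 and -3.30 with CHIR99021, and -3.97, -3.99 and -3.94 with AICAR. In a fit with every probe on its own it rose by 1.00 ± 0.10 with CHIR99021 (adjusted p = 0.000113). With AICAR its difference was 0.24 ± 0.10, and the adjusted p of 0.0646 missed the threshold although the groups did not overlap. The rise of Sox17 with AICAR therefore rests on the brighter probe.

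Sox7, a later-acting relative of Sox17 linked to parietal endoderm, fell with CHIR99021 and rose with AICAR. Its level was -2.85, -2.96 and -3.05 with DMSO, -3.26, -3.14 and -3.53 with CHIR99021, and -2.64, -2.72 and -2.52 with AICAR. The 3 groups did not overlap, with CHIR99021 lowest and AICAR highest. Sox7 fell by 0.36 ± 0.11 with CHIR99021 (1.28-fold, adjusted p = 0.0240) and rose by 0.33 ± 0.11 with AICAR (1.26-fold, adjusted p = 0.0281). The 2 treatments differed by -0.69 ± 0.11 (CHIR99021 minus AICAR, adjusted p = 0.000737), and that call held in all 20 alternatives. The calls against DMSO were less firm. Spike-in scaling ended that of the fall (adjusted p = 0.0615), and quantile normalization and the deposited value table that of the rise (adjusted p = 0.0936 and 0.0950). Leaving out DMSO replicate 1, DMSO replicate 2 or CHIR99021 replicate 3 gave adjusted p = 0.0791, 0.0586 and 0.0574 for the fall. Leaving out DMSO replicate 2, DMSO replicate 3, AICAR replicate 1 or AICAR replicate 3 gave 0.0673, 0.0908, 0.0592 and 0.0884 as adjusted p for the rise. Over all alternatives the adjusted p ranged from 0.0121 to 0.0791 for the fall and from 0.0102 to 0.0950 for the rise.

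Foxa2, a forkhead factor of visceral and definitive endoderm, fell with AICAR. Its brighter probe read -3.44, -3.79 and -3.70 with DMSO, -3.18, -3.32 and -3.39 with CHIR99021, and -6.79, -5.72 and -5.69 with AICAR. The AICAR arrays lay far below the others, and the first of them was not well above background. Foxa2 fell by 2.42 ± 0.27 with AICAR, which is 5.37-fold (adjusted p = 0.000134), and was 2.77 ± 0.27 higher with CHIR99021 than with AICAR, or 6.83-fold. Between CHIR99021 and DMSO the difference was 0.35, with a 95% interval of -0.29 to 0.98, and did not pass (adjusted p = 0.327) although the groups did not overlap. Without AICAR replicate 1 the same difference had an adjusted p of 0.0251, and over all alternatives the adjusted p ran from 0.0251 to 0.528. Under normexp, whose added offset of 50 intensity units shrinks the differences of dim probes, the fall with AICAR was still called but measured -0.66. A dimmer Foxa2 probe was well above background on 2 CHIR99021 arrays alone and was not tested.

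**Figure D2:**
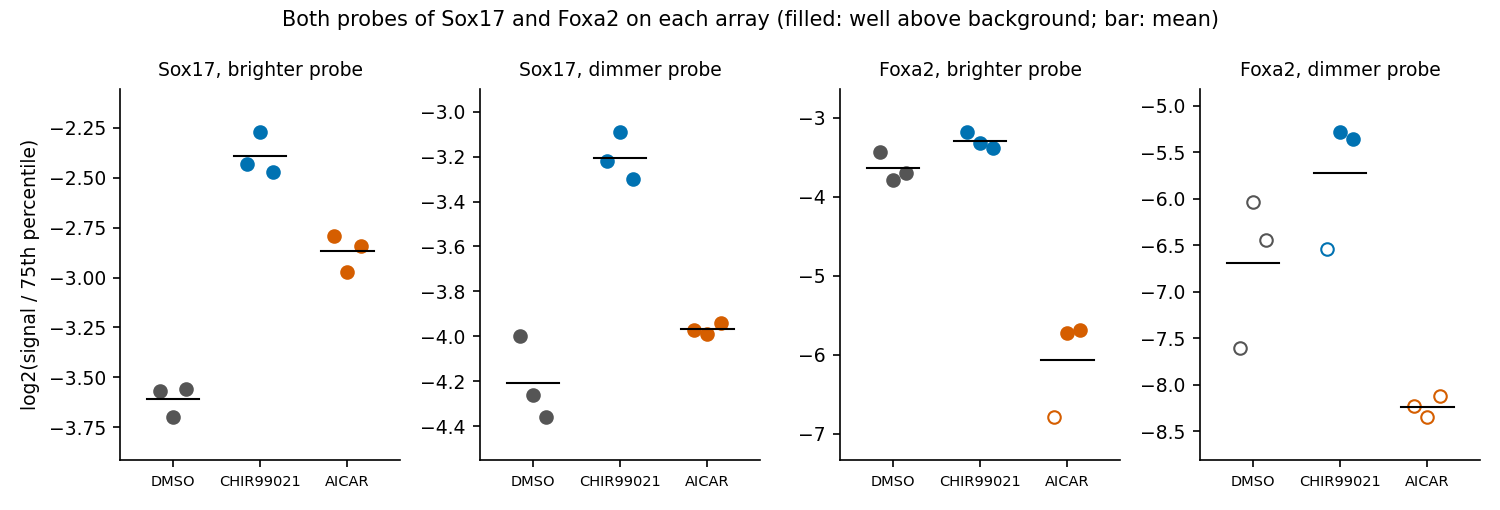
Levels of the 2 probes of Sox17 and of Foxa2 on every array, as log2 of the processed signal minus the array's 75th percentile; points are arrays, bars are group means, and open points were not well above background. Both Sox17 probes are highest with CHIR99021, and both Foxa2 probes are lowest with AICAR.

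Hnf4a, a nuclear receptor that drives visceral endoderm genes, rose more with CHIR99021 than with AICAR. Its level was -1.13, -1.18 and -1.27 with DMSO, -0.63, -0.43 and -0.50 with CHIR99021, and -1.06, -0.98 and -1.0 with AICAR. The CHIR99021 arrays stood clearly above the rest, while the DMSO and AICAR arrays did not overlap but lay close together. The rise was 0.67 ± 0.06 with CHIR99021 (1.59-fold, adjusted p = 8.63e-05) and 0.18 ± 0.06 with AICAR (1.13-fold, adjusted p = 0.0393), and the treatments differed by 0.49 ± 0.06. The small rise with AICAR lost its call in 10 of 20 alternatives. Among these, leaving out DMSO replicate 2 or 3, CHIR99021 replicate 3, or AICAR replicate 2 or 3 gave adjusted p = 0.0764, 0.129, 0.0560, 0.101 and 0.0838, and all 20 ranged from 0.0133 to 0.171.

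Pdgfra, the receptor for PDGF-A and an early surface marker of primitive endoderm, rose with both compounds. The level was -3.96, -3.97 and -3.91 with DMSO, -3.37, -3.15 and -3.26 with CHIR99021, and -3.08, -2.93 and -3.15 with AICAR. The DMSO arrays were the lowest and did not overlap the others, whereas the 2 treated groups were near each other. The rises were 0.69 ± 0.08 with CHIR99021 (1.61-fold, adjusted p = 0.000175) and 0.90 ± 0.08 with AICAR (1.86-fold, adjusted p = 2.62e-05). The difference between the treatments, -0.21 ± 0.08 for CHIR99021 minus AICAR, had an adjusted p of 0.0427 and lost its call in 13 of 20 alternatives, over which the adjusted p ranged from 0.00267 to 0.346. Leaving out any 1 of the 3 DMSO arrays, of CHIR99021 replicates 1 and 3, or of AICAR replicates 1 and 2 was among these, with adjusted p = 0.0618, 0.0620, 0.0604, 0.138, 0.0884, 0.0682 and 0.129 in that order.

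Dab2, an adaptor of clathrin-coated vesicles that extraembryonic endoderm needs for endocytosis and cell positioning, fell strongly with both compounds. Its level was -2.76, -2.73 and -2.69 with DMSO, -4.29, -4.35 and -4.46 with CHIR99021, and -4.61, -4.73 and -4.58 with AICAR. All treated arrays were more than 1 log2 unit below all DMSO arrays, and the spread inside a group was small. The fall was 1.64 ± 0.06 with CHIR99021, or 3.11-fold (adjusted p = 7.87e-07), and 1.91 ± 0.06 with AICAR, or 3.77-fold (adjusted p = 3.24e-07). Both calls held in all 20 alternatives, over which the difference ranged from -1.70 to -0.70 with CHIR99021 and from -2.00 to -0.91 with AICAR, the smallest in each under normexp. The level was 0.28 ± 0.06 higher with CHIR99021 than with AICAR (adjusted p = 0.00520), which was 0.02 and lost the call with spike-in scaling (adjusted p = 0.905) and lost it with a trended and robust prior (adjusted p = 0.0693); the alternatives ranged from 0.00186 to 0.905.

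Afp, alpha-fetoprotein, is a secreted carrier protein made by visceral endoderm, and of the 9 genes it was well above background on the fewest arrays. Its level was -6.15, -5.63 and -6.03 with DMSO and -5.80, -5.86 and -5.71 with AICAR, and these arrays overlapped. With CHIR99021 the probe read -6.51, -7.12 and -6.97, lower than on every other array, and it was not well above background on any of them. The fitted difference was -0.93 ± 0.18 from DMSO (adjusted p = 0.00314), but no fold is given, because the lowest signal that counted as above background on the CHIR99021 arrays averaged -5.79 and the DMSO mean was -5.94. With normexp background correction the difference was 0.01 (adjusted p = 0.952), over a range of 0.000787 to 0.952 in all alternatives. Normexp adds an offset of 50 intensity units, which shrinks any difference of a probe this dim. Its value therefore does not show that Afp was unchanged. Between AICAR and DMSO the difference was 0.14, with a 95% interval of -0.27 to 0.56 (adjusted p = 0.509).

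RefSeq windows of 250 bases upstream of a transcript start, build GRCm38.p6, were found for 5 of the 9 genes, with 9 windows in all. Gata4, Gata6, Sox17 and Sox7 had no entry. The windows were searched on both strands for the GATA motif, AGATAA or TGATAA, and for the TCF/LEF motif, CTTTGAT or CTTTGAA, the letters read by beta-catenin's partners. The first of 2 windows for Dab2, which fell with both compounds, the only one for Pdgfra and the first of 2 for Hnf4a, which rose with both, are shown 5′ to 3′ on the gene's strand, with any GATA match in capitals.
Dab2, chr15:6299539-6299788, + strand: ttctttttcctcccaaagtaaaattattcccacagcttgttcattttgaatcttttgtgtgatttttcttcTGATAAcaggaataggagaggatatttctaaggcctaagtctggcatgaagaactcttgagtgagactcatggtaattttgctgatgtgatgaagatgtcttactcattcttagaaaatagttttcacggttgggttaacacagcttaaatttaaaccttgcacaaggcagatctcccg
Pdgfra, chr5:75152001-75152250, + strand: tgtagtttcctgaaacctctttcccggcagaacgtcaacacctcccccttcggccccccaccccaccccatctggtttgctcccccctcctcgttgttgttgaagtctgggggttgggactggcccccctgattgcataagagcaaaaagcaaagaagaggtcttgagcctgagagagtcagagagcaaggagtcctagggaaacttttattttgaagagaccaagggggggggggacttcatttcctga
Hnf4a, chr2:163506607-163506856, + strand: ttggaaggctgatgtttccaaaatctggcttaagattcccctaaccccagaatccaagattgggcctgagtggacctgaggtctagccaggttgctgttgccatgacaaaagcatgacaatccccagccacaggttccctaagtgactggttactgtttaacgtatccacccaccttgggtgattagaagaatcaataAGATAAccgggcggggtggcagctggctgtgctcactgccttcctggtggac
The Dab2 window holds TGATAA 179 bases before the start and the Hnf4a window holds AGATAA 52 bases before it, while the Pdgfra window and the second windows of Dab2 and Hnf4a hold neither motif. A Foxa2 window also holds AGATAA, 183 bases before its start. GATA letters were thus in 3 of 9 windows, compared with 16.6% of 32851 windows of all genes, and TCF/LEF letters in 0 of 9 against 7.48%. A match is only a description of letters, and the absence of one says nothing beyond the window. Hnf4a, which rose with both compounds, and Dab2, which fell with both, each carried a GATA match.

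The first comparison asked which of these genes responded to CHIR99021. Of the 9 genes, 4 rose (Sox17, Pdgfra, Hnf4a and Gata6), 3 were called lower (Dab2, Sox7 and Afp, the last not well above background with CHIR99021 and without the call under normexp) and 2 did not pass the test, so 7 were called in either direction. Over all features 51.0% were called, 30.4% higher and 20.5% lower. The median difference of the 9 was 0.29, beside 0.07 over all features. Groups did not overlap for 8 of the 9, where 63.3% of all features did not. Only Sox17 and Dab2 were called with a change of at least 2-fold, and under normexp these were 0.65 and -0.70, or 1.57-fold and 1.62-fold. The offset of 50 intensity units that normexp adds shrinks the differences of dim probes by itself. Under normexp Gata6 lost its call, at 0.14 with an adjusted p of 0.171, as it did under spike-in scaling, at 0.24 with 0.177; all alternatives ranged from 0.00541 to 0.177.

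With AICAR, 5 of the 9 rose (Gata6, Pdgfra, Sox17, Sox7 and Hnf4a), 3 fell (Foxa2, Dab2 and Gata4) and Afp did not pass. Over all features 60.5% were called, 30.9% higher and 29.6% lower. The median of the 9 was 0.18, beside 0.03 over all features, and groups did not overlap for 8 of 9, against 67.1% of features. Changes of at least 2-fold were called for Gata6, Foxa2 and Dab2. Under normexp all of these were smaller, at 0.75 for Gata6, -0.66 for Foxa2 and -0.91 for Dab2. The normexp offset shrinks the differences of dim probes by itself, so these values do not show that the changes were under 2-fold. Gata6 lay at the 2-fold line without any offset as well. Its rise was 1.92-fold under quantile normalization, 1.90-fold with the deposited value table and 2.30-fold under spike-in scaling.

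The 2 treated groups were compared directly as well. All 9 genes were called between CHIR99021 and AICAR, 5 higher with CHIR99021 (Foxa2, Hnf4a, Sox17, Gata4 and Dab2) and 4 lower (Afp, Gata6, Sox7 and Pdgfra), where 60.8% of all features were called, 36.2% higher and 24.6% lower. Groups did not overlap for all 9, beside 65.5% of features. Foxa2 differed by 2.77 ± 0.27, and by 0.90 under normexp. The call of Afp is against a group where it was not well above background, so no fold is given, and under normexp its difference was -0.016 and not called (adjusted p = 0.869, in a range of 0.000334 to 0.869). Under spike-in scaling 5 of the 9 were called, and the calls of Gata4 (adjusted p = 0.144), Sox17 (adjusted p = 0.219), Hnf4a (adjusted p = 0.102) and Dab2 were lost.

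Set side by side, the log2 differences from DMSO with CHIR99021 and then AICAR were 0.29 and 1.00 for Gata6, 1.22 and 0.74 for Sox17, 0.67 and 0.18 for Hnf4a, and 0.69 and 0.90 for Pdgfra. For Dab2 they were -1.64 and -1.91, for Sox7 -0.36 and 0.33, for Gata4 0.04 and -0.43, for Foxa2 0.35 and -2.42, and for Afp -0.93 and 0.14. Both comparisons use the same 3 DMSO arrays, so they are not independent of each other. Sox17 had the highest value with CHIR99021 and Gata6 the highest with AICAR, as the plot of differences shows. Normexp, which adds an offset of 50 intensity units, gave smaller values for the genes that rose with both, with 0.14 and 0.75 for Gata6, 0.65 and 0.39 for Sox17, 0.58 and 0.11 for Hnf4a, and 0.39 and 0.46 for Pdgfra. For Sox7 it gave -0.18 and 0.17.

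**Figure D3:**
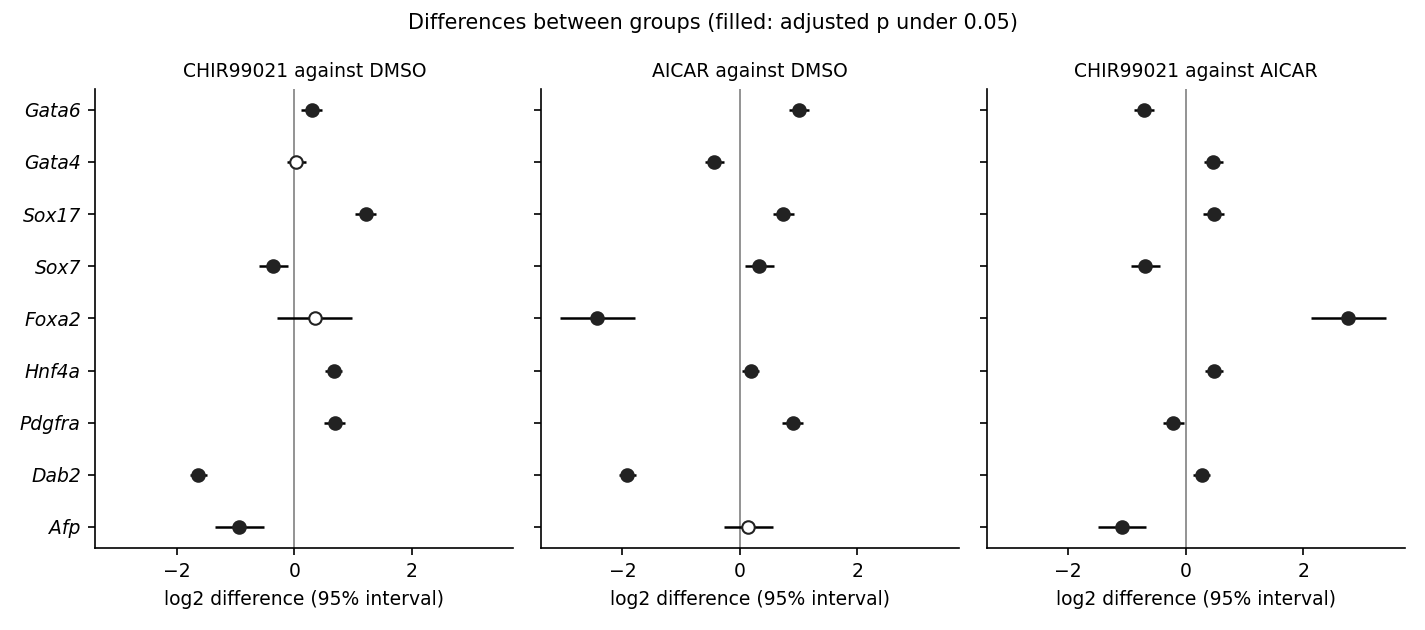
Log2 difference from DMSO of the 9 genes with CHIR99021 and with AICAR, and between CHIR99021 and AICAR; points are fitted differences, filled where adjusted p was under 0.05, and bars their 95% intervals, with n = 3 arrays per group. Dab2 lies below 0 with both compounds, and Foxa2 separates the compounds most.

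**Figure D4:**
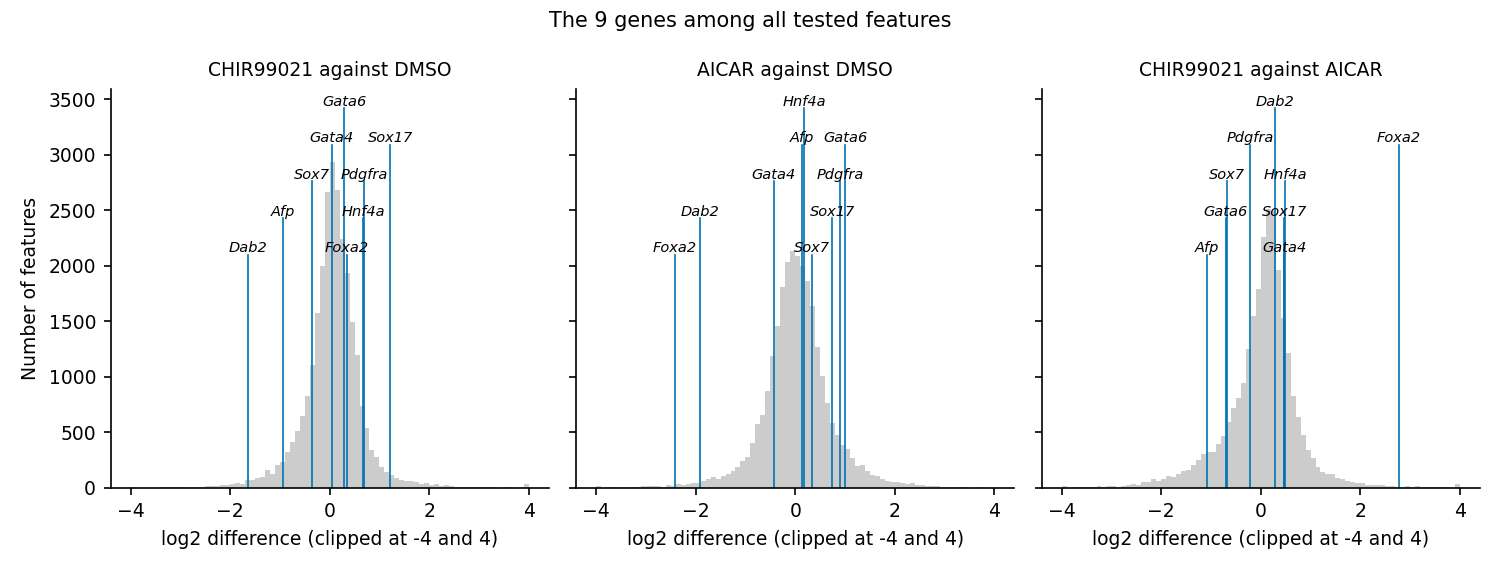
Distribution of log2 differences over all 26875 features in each comparison, with the 9 genes marked and values beyond -4 or 4 drawn at those limits. The 9 genes lie on both sides of 0 in all 3 comparisons.

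Counts in related gene lists are read against all features, of which 30.4% were higher and 20.5% lower with CHIR99021 (median 0.07) and 30.9% and 29.6% with AICAR (median 0.03). Other regulators and signals of extraembryonic endoderm were taken from a list of 12 genes, of which 11 were tested. With CHIR99021 9 rose and 1 fell, with a median of 0.78, and with AICAR 7 rose and 2 fell, with a median of 0.21. Fst, which encodes the activin antagonist follistatin, rose by 3.96 with CHIR99021 (15.6-fold, adjusted p = 3.63e-08). Cited1, a transcriptional cofactor, rose by 2.91 with CHIR99021 and by 1.18 with AICAR. Snai1, a zinc finger repressor, rose by 1.67 and 1.27. Ihh, a hedgehog ligand of visceral endoderm, rose by 0.78 with CHIR99021 and fell by 1.46 with AICAR. With AICAR it was well above background on 1 of 3 arrays. Bmp2 rose by 1.21 with CHIR99021 and by 1.855 with AICAR, from a DMSO level well above background on 1 of 3 arrays. Its CHIR99021 call was lost without DMSO replicate 1 or 3 (adjusted p = 0.0555 and 0.0550). Pth1r fell by 1.18 with CHIR99021 and by 0.73 with AICAR. The sign of the list's median was the same under each scaling tried, but its size was not, at 0.38 under normexp with CHIR99021 and 0.41 under spike-in scaling with AICAR.

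Visceral endoderm is known for taking up and carrying nutrients, and 17 of 20 genes for this were tested. With CHIR99021 5 rose and 7 fell, with a median of -0.27, and with AICAR 3 rose and 10 fell, with a median of -0.32. Under spike-in scaling the AICAR counts were 5 and 6, with a median of -0.12, and under normexp the medians were -0.040 with CHIR99021 and -0.19 with AICAR. The list's summed level went the other way, from 76.0 to 79.0 with DMSO to 97.9 to 104 with CHIR99021 and 98.8 to 117 with AICAR. That sum mostly follows Apoe, the brightest gene of the list. Its mean log2 level was 5.71 with DMSO, 6.27 with CHIR99021 and 6.43 with AICAR. Lrp2, the endocytic receptor megalin, fell by 2.91 with CHIR99021 (7.53-fold, adjusted p = 4.37e-08) and fell by 2.60 with AICAR (6.04-fold, adjusted p = 6.60e-08). Cubn, the megalin partner cubilin, fell by 1.26 with CHIR99021 and fell by 2.82 with AICAR. Spink1, a secreted protease inhibitor, fell by 1.65 with CHIR99021 and fell by 2.34 with AICAR. Apoe, apolipoprotein E, rose by 0.56 and 0.71 with the 2 compounds. S100g, a calcium-binding protein, rose by 1.69 ± 0.59 with CHIR99021 (adjusted p = 0.0445) and fell by 1.61 ± 0.59 with AICAR (adjusted p = 0.0457). Both S100g calls lie near the threshold, and its CHIR99021 and DMSO arrays overlapped. Apoe, Dpp4 (a rise of 0.55 with CHIR99021 and 0.33 with AICAR) and the S100g values against DMSO were picked after they were seen. The Dpp4 value with CHIR99021 rests on 2 arrays. Between the compounds S100g met the rule for naming genes given below. It was 3.29 ± 0.59 higher with CHIR99021 than with AICAR (adjusted p = 0.00163). Dab2, the adaptor of these receptors, fell in the same comparisons, as given above. Ttr, the thyroid hormone and retinol carrier transthyretin, was not well above background on any AICAR or CHIR99021 array. With AICAR it was at least 1.56-fold lower than with DMSO (adjusted p = 0.0189). Leaving out DMSO replicate 1 or 3 ended that call (adjusted p = 0.0503 and 0.0552). With CHIR99021 its difference from DMSO was -1.01 and did not pass (adjusted p = 0.121).

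Parietal endoderm lays down a thick basement membrane, and all 19 genes listed for this were tested. They fell more often than they rose with CHIR99021, 8 against 2, with a median of -0.15, and rose more often with AICAR, 11 against 2, with a median of 0.37. Sparc and Hspg2, a matrix glycoprotein and the proteoglycan perlecan, each fell by 0.53 with CHIR99021, while the largest change there was a rise, of 0.73 for the keratin gene Krt8. Under normexp the CHIR99021 median was -0.056. The list's summed level was 314 to 321 with DMSO, 272 to 286 with CHIR99021 and 320 to 329 with AICAR, so that DMSO and AICAR overlapped. With AICAR Krt8 and Krt19 rose by 1.87 and 1.95, Srgn, which encodes the proteoglycan core protein serglycin, fell by 1.15, and Thbd, the thrombin receptor thrombomodulin, rose by 2.31 from a DMSO level well above background on 1 of 3 arrays. Between the compounds 12 of the 19 were lower with CHIR99021 than with AICAR and 2 were higher, with a median difference of -0.49. Over all features 24.6% were lower and 36.2% higher in that comparison, with a median of 0.10.

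Of 21 genes for FGF, PDGF and ERK signalling, 8 rose and 6 fell with CHIR99021 and 5 rose and 10 fell with AICAR, where spike-in scaling gave 6 and 5. Fgf4, the ligand that favours primitive endoderm, fell by 0.70 with CHIR99021 (1.62-fold, adjusted p = 7.44e-06) and rose by 0.46 with AICAR. Pdgfa, the ligand of Pdgfra, rose by 1.99 with CHIR99021 (3.98-fold, adjusted p = 1.37e-07). The ERK feedback inhibitors Spry2 and Spry4 rose by 0.95 and 1.82 with CHIR99021 and fell by 1.65 and fell by 1.66 with AICAR. Dusp6, an ERK phosphatase, fell by 0.69 with CHIR99021 and fell by 2.15 with AICAR. Fgfr3, an FGF receptor, rose by 0.61 with CHIR99021 and by 2.48 with AICAR. The list's median was 0.06 with CHIR99021 and -0.09 with AICAR, the latter turning to 0.11 under spike-in scaling.

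Of 11 epiblast and stem cell factors, 8 rose with CHIR99021, with a median of 0.53, and the other 3 (Nanog, Pou5f1 and Sall4) did not pass. With AICAR 6 rose and 2 fell (Sall4 by 0.42 and Zfp42 by 0.31), with a median of 0.36. Under spike-in scaling the AICAR counts were 7 and 0. Prdm14, which represses primitive endoderm genes in stem cells, rose by 1.16 with CHIR99021 and by 0.94 with AICAR, and Klf4, a naive state factor, rose by 1.06 and 0.83. Tbx3, a T-box factor, rose by 1.13 with CHIR99021.

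**Figure D5:**
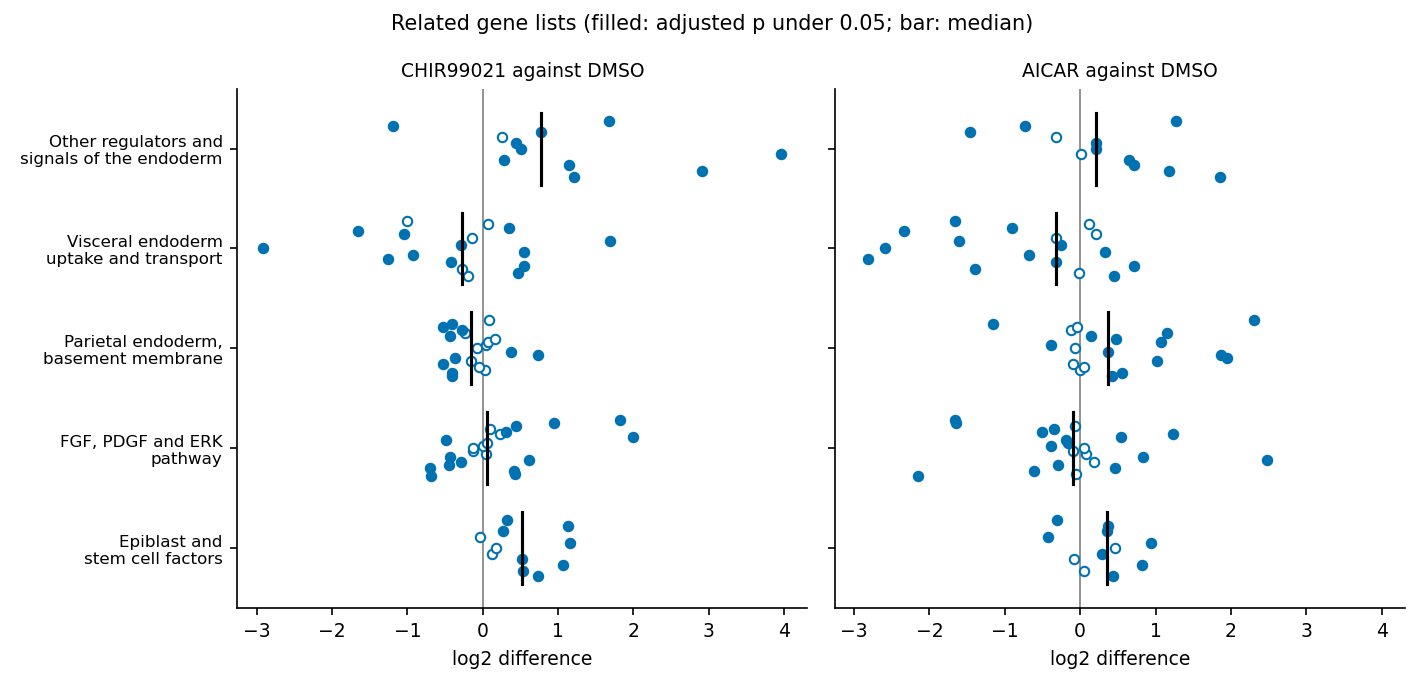
Log2 differences of the tested genes in each related list, by comparison; points are genes, filled where adjusted p was under 0.05, and bars are medians. Parietal endoderm genes lie mostly above 0 with AICAR and mostly below 0 with CHIR99021.

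Markers of other cell types moved in the same samples. Over all features 30.4% were higher and 20.5% lower with CHIR99021, and 30.9% and 29.6% with AICAR. Of 9 primitive streak and definitive endoderm markers 7 were tested, and 7 rose with CHIR99021 and 6 with AICAR. Quantile normalization, spike-in scaling and the deposited value table gave 4 rises each with CHIR99021. Their summed level was 1.19 to 1.25 with DMSO, 8.60 to 8.97 with CHIR99021 and 2.22 to 2.36 with AICAR. T, the streak factor brachyury, rose by 8.27 with CHIR99021 from a DMSO level well above background on 2 of 3 arrays, and Mixl1 and Cer1 were not well above background in any group. Sox17 and Foxa2 are shared between primitive and definitive endoderm. The part of streak cells in their values, or in those of any other of the 9 primitive endoderm genes, was not tested. Eomes and Foxa1, which rose with both compounds, were counted here and among the other regulators and signals of extraembryonic endoderm. Those counts are therefore not separate. Of 12 fibroblast markers, Postn, Lum and Prrx1 were not well above background in any group, and of the 9 tested 1 rose and 3 fell with CHIR99021 and 3 rose and 4 fell with AICAR. Pdgfrb, the other PDGF receptor, rose by 2.13 and 2.32, and Col1a2, a collagen chain, fell by 0.48 and fell by 1.29. Their summed level was 8.38 to 9.29 with DMSO, 7.84 to 9.18 with CHIR99021 and 9.48 to 11.5 with AICAR. Of 8 trophoblast markers, Tpbpa was not well above background in any group, and of the 5 tested 3 rose and 1 fell with CHIR99021 and 3 rose and 2 fell with AICAR. Cdx2 rose by 7.27 with CHIR99021 and its tested probe was not well above background on any AICAR array. Gata3 fell by 1.26 and fell by 1.60 with the compounds, and Krt7 rose by 2.31 with AICAR. Trophoblast sums were 11.2 to 12.0 with DMSO, 20.3 to 21.8 with CHIR99021 and 19.6 to 19.8 with AICAR.

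Genes whose levels over the 9 arrays ran most like each of the 9 were found among 16055 genes with a symbol. The arrays form 3 groups, so such correlations mostly follow group means, and they are given as a description. Dab2 was closest to Lmo4, Dnmt3l and Acot5, each with a Pearson correlation of 0.997, and 305 genes had one above 0.95. For Gata6 they were Dennd10 (0.997), Tm6sf1 (0.996) and Gdap10 (0.994), with 431 above 0.95, and for Sox17 they were Tle2 (0.995), Esrrb (0.993) and Ppp5c (0.992), with 356. Sox7 had 38 such genes, led by Fut7 (0.987), and Afp had 21, led by 9530051G07Rik (0.991). Foxa2 had the most, 629, led by Psma3 (0.993), though that value was 0.839 under spike-in scaling. Pdgfra was closest to Mt1 (0.993, 270 genes), Hnf4a to Pkib (0.989, 268 genes) and Gata4 to Ccdc137 (0.985, 342 genes).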

How the data were processed

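Total RNA of 9 samples was labelled with Cy3 and hybridised to Agilent arrays of 1 colour. Intensity per spot, on a linear scale, comes from the deposited scanner files, made with Agilent Feature Extraction 10.7.3.1 per the file headers; version 10.7 stands in the submitters' processing notes. The deposited value table holds log2 values per probe that tracked log2 processed signals closely (correlation by array of 0.9996 to 1.0000); its median was 5.18 on every array and its 75th percentile 8.90, its scaling was not stated in the labels or headers, so it served as an alternative alone.

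Of 59305 spots that are not controls, 136 to 192 per array marked as outliers were left out. The log2 of the processed signal minus the array's 75th percentile was used, as the mean over a probe's spots. Probes well above background on at least 3 of 9 arrays were kept, and the probe with the highest mean stood for a gene, giving 26875 features. Accessions were matched without versions to RefSeq genes of GRCm38.p6; 27235 of 55681 probes matched.

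One limma fit (lmFit and eBayes, version 3.58.1, with R 4.3.3 and data.table, version 1.17.8) held all arrays; tables were made with Python 3.11.15, pandas 2.3.3 and numpy 2.4.6, and figures with matplotlib 3.10.9. A gene below background throughout a group has a bound in place of a fold: the brighter group's mean against, in the dim group, the mean of each array's probe signal or its lowest signal well above background, whichever is greater. The number of arrays limits the precision. Simulated data tested the fit on 26806 features: a planted log2 change of 1 was recovered at 81% for CHIR99021 against DMSO, at 83% for AICAR against DMSO and at 83% between the treatments, and a change of 0.5 for 55%, 53% and 43%. Only 100 features of each size were changed, whereas 51.0% to 60.8% of features were called in the data. The adjustment works differently there, so these shares are not the sensitivity of the fit in these data.

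The text names the 9 genes whatever their result, up to 4 called genes of each related list with the largest difference and groups that do not overlap, the closest genes by correlation, and genes of the marker lists where those are described. The 9 genes and the lists were chosen with earlier results of these data known. Alternatives were normexp background correction with an offset of 50, quantile normalization, scaling on 9 spike-in probes, the deposited value table, other filters and probe rules, another prior, pairs of groups alone, a replicate block, and leaving out each array. Normexp used the median spot signal and the median background. The alternatives are not independent checks. Probe rules reuse the same values for a gene with a single probe. Another prior, or leaving out an array of the group not compared, changes the p-value of a difference and not its size.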

Additional observations from a re-analysis of the deposited data

How the results depend on the processing

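Of the 27 differences of the 9 genes, 13 kept their call and direction in every alternative that gave a value, and 14 did not in at least 1; over all alternatives 483 values did not change their call or direction, 42 lost the call, 3 gained one and 6 changed sign. The changes of sign were in Gata4, CHIR99021 minus DMSO, never called, which was -0.057 with normexp, -0.025 with quantile normalization, -0.017 with spike-in scaling and -0.029 with the deposited value table, and ran from -0.035 (without CHIR99021 replicate 2) to 0.080 with 1 array left out, and in Afp, CHIR99021 minus DMSO, which was 0.006146 with normexp. Foxa2, CHIR99021 minus DMSO, gained a call with normexp (adjusted p = 0.0370), with those 2 groups alone (0.0397) and without AICAR replicate 1 (0.0251).

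Spike-in scaling, which rests on 9 control probes, shifted the median of all features by -0.06, 0.20 and -0.26 for CHIR99021 against DMSO, AICAR against DMSO and CHIR99021 against AICAR, and the share of higher among called features went from 59.7%, 51.1% and 59.5% to 49.7%, 73.6% and 28.3%. It lowered all called features from 13698 to 9035 with CHIR99021 against DMSO, and the 9 genes called from 9 to 5 in CHIR99021 against AICAR; the cause was not tested. On the spike-ins AICAR replicate 2 lay at -3.16, near the DMSO arrays (-3.18 to -3.15) and apart from the other AICAR arrays (-2.88 and -2.86), so the shift with AICAR comes from 2 of its 3 arrays. A filter on all 9 arrays leaves 7 of the genes, so Foxa2 and Afp have no value there.

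The replicate numbers do not pair the arrays: deviations from group means correlated at -0.05 to 0.09 for the same number and -0.13 to 0.11 for different numbers. With the replicate block the genes called were 7, 7 and 9, and all features called 12714, 15468 and 15686.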
